A study of Mus musculus with 6 samples.

Results

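The nuclear-encoded subunits of the mitochondrial respiratory chain and ATP synthase were examined in messenger RNA of double-negative (DN) thymocytes, early T lineage cells of the thymus that have not yet put CD4 or CD8 on their surface. Members were the protein-coding entries named *Ndufa*, *Ndufb*, *Ndufc*, *Ndufs* or *Ndufv* (without the *Ndufaf* assembly factors), *Uqcr*, *Cox4* to *Cox8* or *Atp5*, together with *Sdha*, *Sdhb*, *Sdhc*, *Sdhd* and *Cyc1*. This gave 87 of 41457 listed genes, of which 38 were assigned by name to complex I, 4 to complex II, 9 to complex III, 18 to complex IV and 18 to complex V. They lay on 19 chromosomes. Some entries need a remark. *Ndufa4* is counted with complex I but encodes a protein now assigned to complex IV. *Ndufab1*, counted here with the accessory subunits of complex I, encodes a protein that is also the mitochondrial acyl carrier protein. *Atp5s* encodes the ATP synthase coupling factor B, which is not a core subunit, and *Atp5o* is listed under 2 entries (*Atp5o_1* and *Atp5o_2*).

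Nc1Bio mice, labelled as NFATc1 overexpression, carried a bacterial artificial chromosome with an additional, biotin-tagged copy of the *Nfatc1* locus together with the biotin ligase BirA. BirA mice, labelled WT, expressed the ligase from the *Rosa26* locus without the extra copy, so that the ligase was common to both groups. Per the methods of the study, the mice were on a C57/B6 background, matched for sex and age and 4 to 6 weeks old. DN cells were what remained after magnetic removal of CD4- and CD8-bearing cells, and each group had 3 libraries of poly(A) RNA. The study describes the DN cells of both groups as freshly isolated. All sample titles carry a minus sign, with which the study marks untreated thymocytes in another assay. The labels do not say whether these came from separate mice, so every p-value measures the spread between libraries, which may be technical.

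Complexes I to IV pass electrons from NADH and succinate to oxygen and, except for complex II, pump protons out of the mitochondrial matrix. Complex V, the ATP synthase, lets the protons back in and makes ATP. Most of the subunits are encoded in the nucleus and are made in the cytosol, while the mitochondrial genome encodes a small set of core proteins of complexes I, III, IV and V. DN thymocytes that have rearranged a T cell receptor beta chain divide rapidly, a step that draws on both glycolysis and respiration.

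Libraries held 11845952 to 14013497 uniquely placed gene reads in Nc1Bio and 13767665 to 15393763 in BirA. *Nfatc1* itself had a mean of 573 ± 23.2 CPM (read counts scaled to the library total after adjustment by TMM, the trimmed mean of M values) across the Nc1Bio libraries, against 126 ± 27.9 CPM across BirA (SD over 3 libraries), and was the 1 gene that passed the edgeR quasi-likelihood test (adjusted p = 0.0141). All 16 listed DN thymocyte markers were detected, with summed levels of 7298 to 8561 CPM in Nc1Bio and 6432 to 7413 CPM in BirA, while the depleted co-receptor genes *Cd4*, *Cd8a* and *Cd8b1* summed to 21.1 to 41.6 CPM and 22.2 to 52.6 CPM. Other cells were represented too. Markers of NK cells (6 of 6 detected, 0 at 0 reads) summed to 310 to 481 CPM in Nc1Bio and 660 to 682 CPM in BirA, and B cell markers (7 of 7) to 289 to 1563 CPM and 1644 to 2026 CPM. Erythroid markers (7 of 7) ranged from 17666 to 97663 CPM in Nc1Bio and from 20079 to 66151 CPM in BirA, and granulocyte markers (8 of 8) from 357 to 5330 CPM and from 438 to 8748 CPM. On total gene reads the erythroid sum was larger, from 61524 to 323406 CPM in Nc1Bio and from 68390 to 216808 CPM in BirA. It was highest in Nc1Bio replicate 3 and BirA replicate 1, which had the lowest TMM factors on total reads (0.834 and 0.927). Library totals thus held a varying load of these reads. Macrophage (7 of 7), dendritic cell (6 of 6) and epithelial markers (5 of 5) summed to at most 78.2, 37.5 and 44.9 CPM in Nc1Bio and 192, 58.3 and 38.4 CPM in BirA. A marker counted as detected with any unique read in any library. The epithelial sum was nearly all *Epcam* (means of 33.7 CPM in Nc1Bio and 30.5 CPM in BirA). *Krt5*, *Krt8*, *Foxn1* and *Psmb11* had means of at most 0.66 CPM in either group, and *Foxn1* had 0 in Nc1Bio. The part of these other cells in the results below was not tested. In bulk samples such as these, fewer cells of a type and less RNA per cell cannot be told apart.

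Respiratory chain transcripts were abundant. The members took 1.68%, 1.70% and 1.58% of all uniquely placed gene reads in Nc1Bio and 1.46%, 1.47% and 1.70% in BirA. Per kilobase of annotated exon, *Atp5b* and *Atp5a1*, which encode the beta and alpha subunits of the ATP synthase head, stood highest, with 391 and 389 CPM of total exon reads per kb as the mean of all 6 libraries. Next came the complex IV genes *Cox8a* (309), *Cox6a1* (278), *Cox4i1* (226) and *Cox6b1* (209). The median level per kb was 55.8 for complex I, 65.6 for complex II, 84.9 for complex III, 70.1 for complex IV and 101 for complex V. In complex I *Ndufc2*, an accessory subunit of the membrane arm, was highest (146), and *Ndufb2* lowest among the tested genes (7.19). *Ndufb2* has 5628 bases of annotated exon, which lowers its value on this scale. In complex II, the succinate dehydrogenase that also works in the citric acid cycle, levels ran from 37.6 for *Sdhc* to 115 for *Sdhd*, the genes of its membrane anchors. In complex III they ran from 52.8 for *Uqcrc1* to 147 for *Uqcr10*.

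Forms of subunits that are known to be limited to certain tissues were close to absent. *Cox8b* and *Cox8c* had 0 reads in all 6 libraries, and *Cox4i2*, *Cox6a2*, *Cox7b2* and *Ndufa4l2* had at most 0.51 CPM of unique reads in any library. Their widely expressed counterparts *Cox8a*, *Cox4i1*, *Cox6a1*, *Cox7b* and *Ndufa4* lay between 107 and 309 CPM per kb. *Cox7a1*, the form known from heart and skeletal muscle, reached 3.12 and *Cox6b2*, the form known from testis, 8.72, against 99.7 for *Cox7a2* and 209 for *Cox6b1*.

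**Figure D1:**
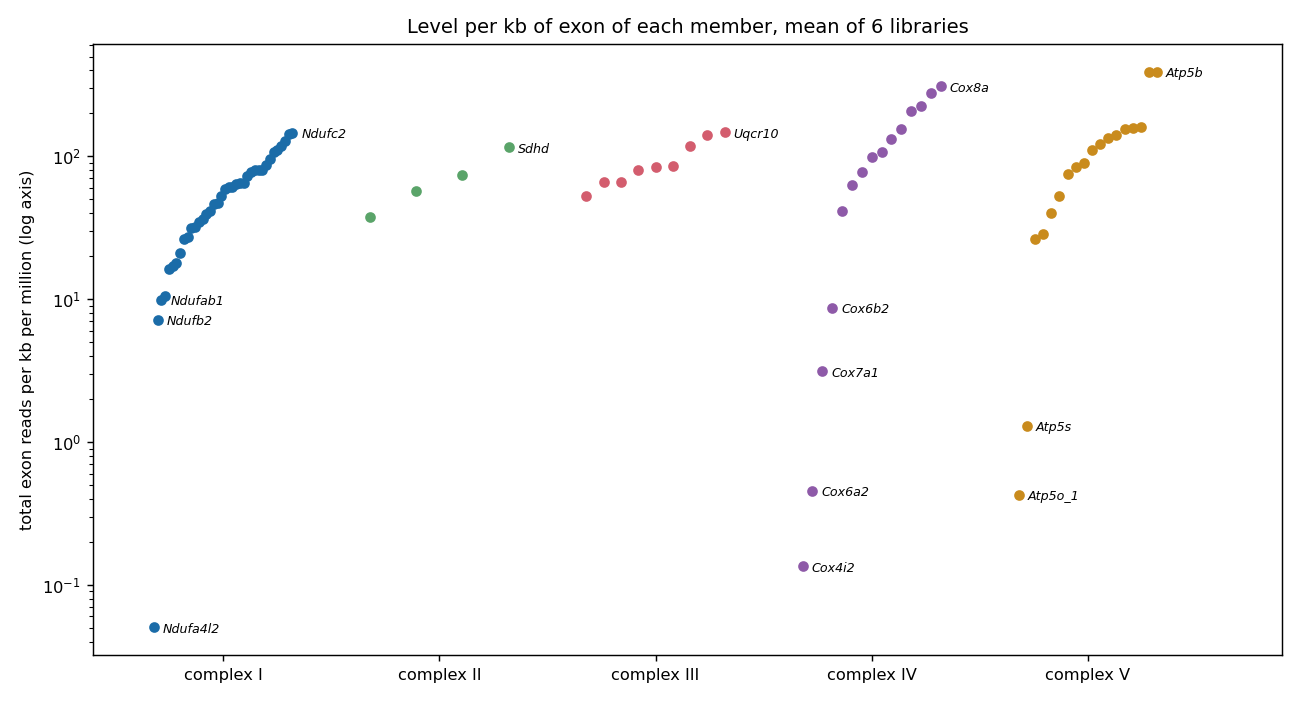
Level of each member in CPM of total exon reads per kb of exon (log axis, mean of 6 libraries), by complex, with members ordered by level within a complex. *Atp5b* (391) and *Atp5a1* (389) stand above all others, while the tissue-limited forms *Cox6b2*, *Cox7a1*, *Cox6a2*, *Cox4i2* and *Ndufa4l2* are among the members below 10. Members at 0 on this scale (*Cox7b2*, *Cox8b*, *Cox8c*) are not drawn.

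The comparison of Nc1Bio with BirA asked whether the extra *Nfatc1* copy went along with another level of these transcripts. Of the 87 members, 80 had enough unique gene reads to be tested. The 7 left out were *Atp5o_1* and the 6 tissue-limited genes *Cox4i2*, *Cox6a2*, *Cox7b2*, *Cox8b*, *Cox8c* and *Ndufa4l2*. None of the 80 passed the edgeR test at an adjusted p under 0.05 (0 higher and 0 lower, against 0.00818% of all 12224 tested genes called higher and 0% lower). At an unadjusted p under 0.05, 9 members were higher and 0 lower, beside 4.31% and 7.66% of all tested genes. limma-voom likewise called 0 members (0.00818% and 0% of all genes), with 10 higher and 0 lower at the unadjusted level (4.52% and 6.95%). DESeq2 called 1 higher, *Cox6b2*, and 0 lower (0.45% and 2.23% of all genes), with 9 higher and 0 lower at the unadjusted level (4.35% and 8.13%).

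The estimates leaned to one side and were small. The log2 fold change was above 0 for 73 of the 80 tested members, beside 49.6% of all tested genes, and its median was 0.125, a fold of 1.09, beside -0.0026 for all genes. Members share the same 6 libraries and are not independent, so these counts are a description. The medians by complex were 0.11 for complex I, 0.15 for complex II, 0.11 for complex III and 0.13 for complexes IV and V, and all 17 tested genes of complex V lay above 0. A typical standard error was 0.105, close to the median difference itself. The 3 libraries of Nc1Bio lay above all BirA libraries for 19 members and below them for 1, *Cox7a1*, where 8.45% and 9.98% of all tested genes did so. That separation depended on the scaling. With reads scaled to library totals without TMM, an alternative chosen after seeing the data, the groups lay apart for 11 members with Nc1Bio above and for 2 with Nc1Bio below (4.88% and 11% of all tested genes), and the groups of *Ndufa8*, *Ndufb6*, *Ndufc2*, *Ndufs8*, *Ndufv2*, *Sdhc*, *Uqcrc1*, *Atp5b*, *Atp5g3* and *Atp5o_2* then overlapped. In that fit the median log2 fold change was 0.094, beside -0.031 for all genes, with 70 of 80 members above 0 (45% of all genes). There edgeR called 0 members, beside 1 of all tested genes higher and 18 lower. At an unadjusted p under 0.05, 2 members were higher and 0 lower (1.82% and 8.22% of all genes).

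**Figure D2:**
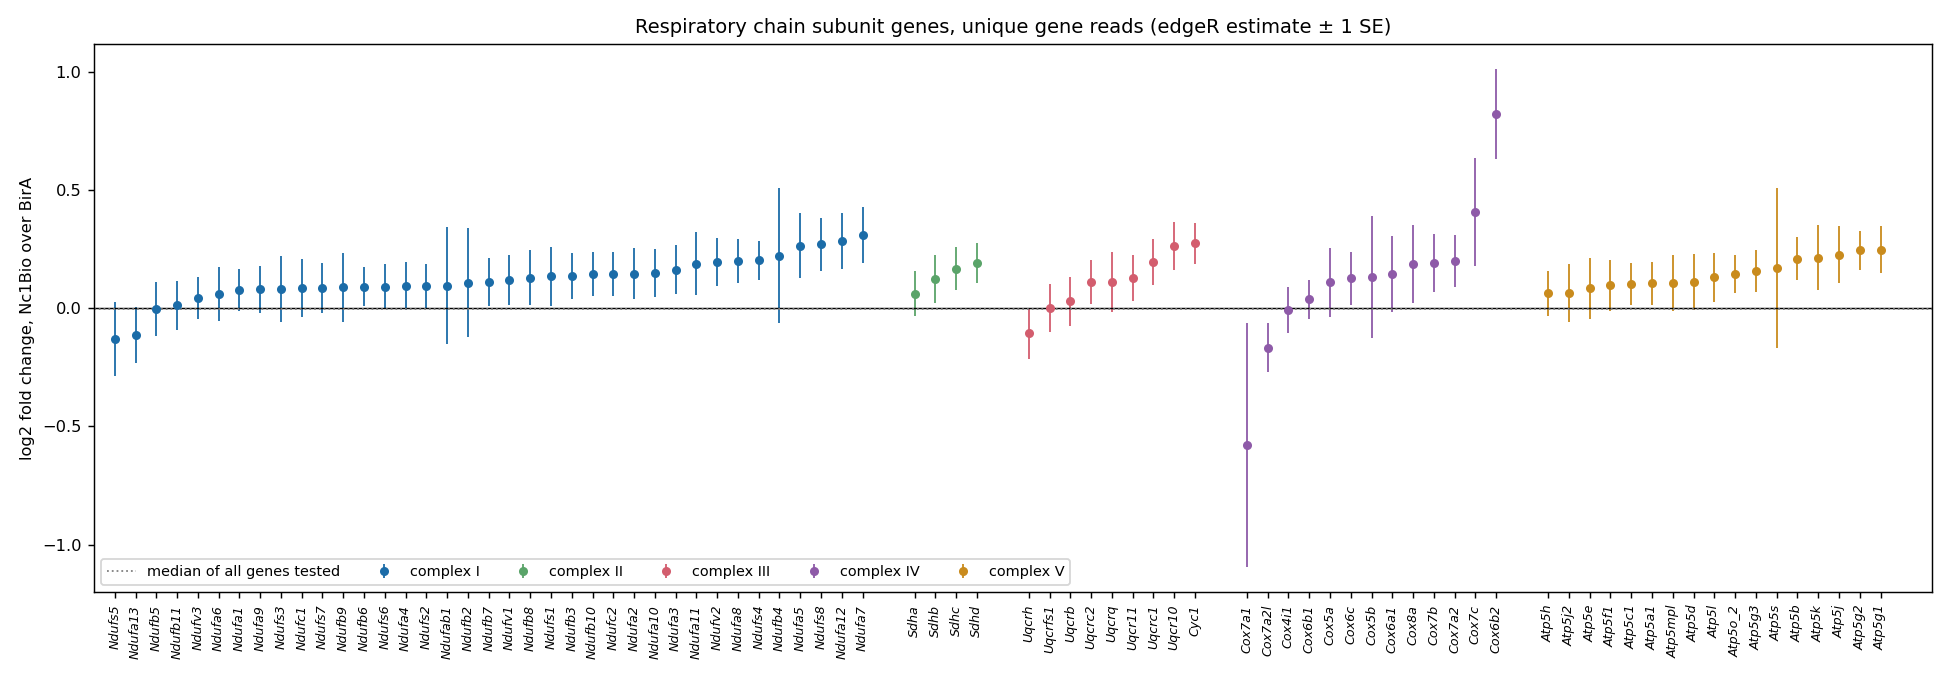
Fold change on the log2 scale, Nc1Bio over BirA, from edgeR on unique gene reads (vertical axis, bars ± 1 SE) for the 80 tested members, ordered by value within each complex, with a line at 0 and a dotted line at the median of all tested genes. Most points sit between 0 and 0.3, *Cox6b2* stands apart at 0.82, and the wide bars belong to genes with few unique reads such as *Cox7a1*, *Atp5s* and *Ndufb4*.

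Libraries within a group were not equal. BirA replicate 2 was the lowest library for 42 of the 80 members and BirA replicate 1 for 25, while Nc1Bio replicate 3 was the highest for 35. Of all 12224 tested genes, these libraries were so for 1658, 2962 and 2390, in the same order. Relative to its own mean over the 6 libraries, the median member lay at 0.040, 0.041 and 0.099 on the log2 scale in Nc1Bio, against -0.075, -0.15 and 0.011 in BirA. Without BirA replicate 2 the median log2 fold change was 0.085 with 62 of 80 estimates above 0, and without BirA replicate 3 it was 0.189 with 75 above 0. At an unadjusted p under 0.05, 1 member was higher without BirA replicate 2 (3.12% of all tested genes), 14 without BirA replicate 3 (6.69%) and 4 without BirA replicate 1 (2.57%). The number was 6, 4 and 2 without Nc1Bio replicates 1, 2 and 3 (3.2%, 2.73% and 3.58% of all tested genes). The number of members called by edgeR was 0 in each, where at most 1 of all tested genes was called higher and at most 1 lower.

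Summed over all members, unique CPM were 16583, 16498 and 17039 in Nc1Bio, against 15049, 14448 and 16281 in BirA. On this TMM scale the groups did not overlap. Scaled to library totals, the sums were 16808, 16982 and 15768 CPM in Nc1Bio and 14569, 14659 and 17021 CPM in BirA, with BirA replicate 3 above all Nc1Bio libraries and a ratio of the means of 1.07. With TMM the means were 16707 ± 291 CPM for Nc1Bio and 15259 ± 934 CPM for BirA (SD over 3 libraries), a ratio of 1.09. Complex V made up 48.0% of the sum, with 7913, 7985 and 8333 CPM in Nc1Bio and 7055, 6964 and 7790 CPM in BirA. *Atp5a1* and *Atp5b* alone held 25.2% of the sum, and without them the ratio of the group means over the other 85 members was still 1.09. Complex I summed to a mean of 3852 ± 69.5 CPM in Nc1Bio, against 3535 ± 193 CPM for BirA, and complex II to 1023 ± 30.7 and 943 ± 30.9 CPM (SD over 3 libraries), both without overlap on the TMM scale, as was complex V. Complexes III and IV overlapped between the groups, and on library totals all 5 complexes did. Complex III had 1626, 1604 and 1716 CPM in Nc1Bio and 1482, 1424 and 1647 CPM in BirA, and complex IV 2142, 2088 and 2087 CPM against 2114, 1722 and 2146 CPM. In complex IV only BirA replicate 2 was low.

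**Figure D3:**
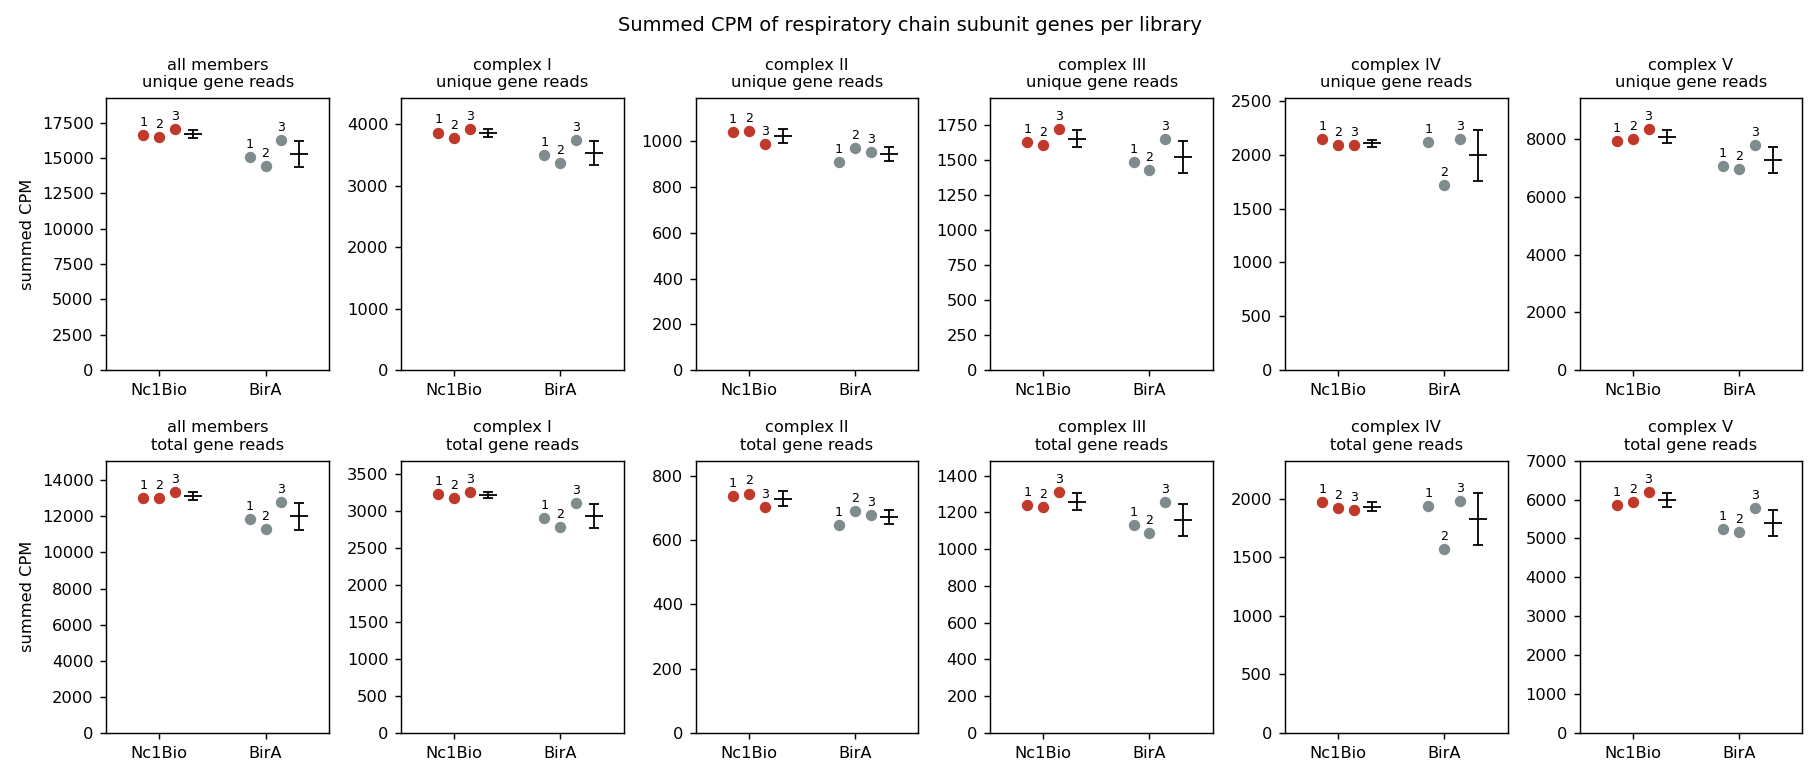
Summed CPM of all members and of each complex (vertical axes, starting at 0) in Nc1Bio (red) and BirA (grey) libraries, numbered by replicate, with mean ± SD beside them. The top row uses unique and the bottom row total gene reads. In complex IV a single point, BirA replicate 2 at 1722 CPM of unique reads, stands below the other 5.

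In complex I, the entry point for electrons from NADH, 34 of 37 tested genes had an estimate above 0. The 7 nuclear core subunits, which hold the flavin and the iron-sulfur clusters, were all above 0 with log2 fold changes between 0.082 and 0.27, and 26 of 29 accessory subunits were above 0 with a median of 0.11. *Ndufa7*, an accessory subunit of the peripheral arm, had 101, 89.7 and 119 CPM in Nc1Bio, against 81.3, 80.5 and 88.0 CPM in BirA. Its log2 fold change was 0.31 (SE 0.12, edgeR adjusted p = 0.386). The groups lay apart by a narrow margin. *Ndufs4*, an accessory subunit whose loss causes Leigh syndrome in people, had 76.0, 73.6 and 75.3 CPM in Nc1Bio and 65.3, 66.8 and 63.4 CPM in BirA (log2 fold change 0.20, SE 0.083, edgeR adjusted p = 0.402). Both groups were narrow and lay apart. *Ndufa12* had 71.6, 80.2 and 83.8 CPM in Nc1Bio and 64.6, 56.6 and 72.2 CPM in BirA (log2 fold change 0.29, SE 0.12, edgeR adjusted p = 0.403), with BirA replicate 3 just above the lowest Nc1Bio library. The core subunit gene *Ndufs8* was similar at 0.27 (SE 0.11, edgeR adjusted p = 0.404). *Ndufa4* showed 217 ± 15.5 CPM in Nc1Bio, against 203 ± 17.7 CPM for BirA (SD over 3 libraries), with overlapping groups.

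All 4 genes of complex II had estimates above 0. *Sdhd* had 208, 215 and 215 CPM in Nc1Bio, against 175, 196 and 189 CPM in BirA (log2 fold change 0.19, SE 0.086, edgeR adjusted p = 0.436). *Sdhc* had 181, 175 and 190 CPM in Nc1Bio and 154, 158 and 175 CPM in BirA (0.17, SE 0.090, edgeR adjusted p = 0.503), and the groups of both anchor genes lay apart, though those of *Sdhc* nearly met and overlapped on library totals. For *Sdhb*, the iron-sulfur subunit (0.12, SE 0.10), and *Sdha*, the flavoprotein (0.062, SE 0.093), the groups overlapped.

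In complex III, which hands electrons from ubiquinol to cytochrome c, *Cyc1* had the lowest edgeR p. This gene (chromosome 15, 76343523 to 76346260, GRCm38) encodes cytochrome c1. It had 227, 215 and 215 CPM in Nc1Bio, against 190, 170 and 184 CPM in BirA, so that all Nc1Bio libraries were higher. Its log2 fold change was 0.27 (SE 0.087, edgeR adjusted p = 0.319). *Uqcr10*, a small subunit next to cytochrome c1, had 127, 121 and 148 CPM in Nc1Bio and 111, 107 and 112 CPM in BirA (0.26, SE 0.10, edgeR adjusted p = 0.386). *Uqcrc1*, which encodes a core protein of the matrix side, had 323, 319 and 340 CPM in Nc1Bio and 264, 280 and 315 CPM in BirA (0.20, SE 0.097, edgeR adjusted p = 0.472). The groups of all 3 genes lay apart, those of *Uqcrc1* with TMM scaling only. The Rieske protein gene *Uqcrfs1* had an estimate of 0.0017 (SE 0.10), and *Uqcrh*, the hinge protein, lay at -0.11 (SE 0.11) with overlapping groups.

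**Figure D4:**
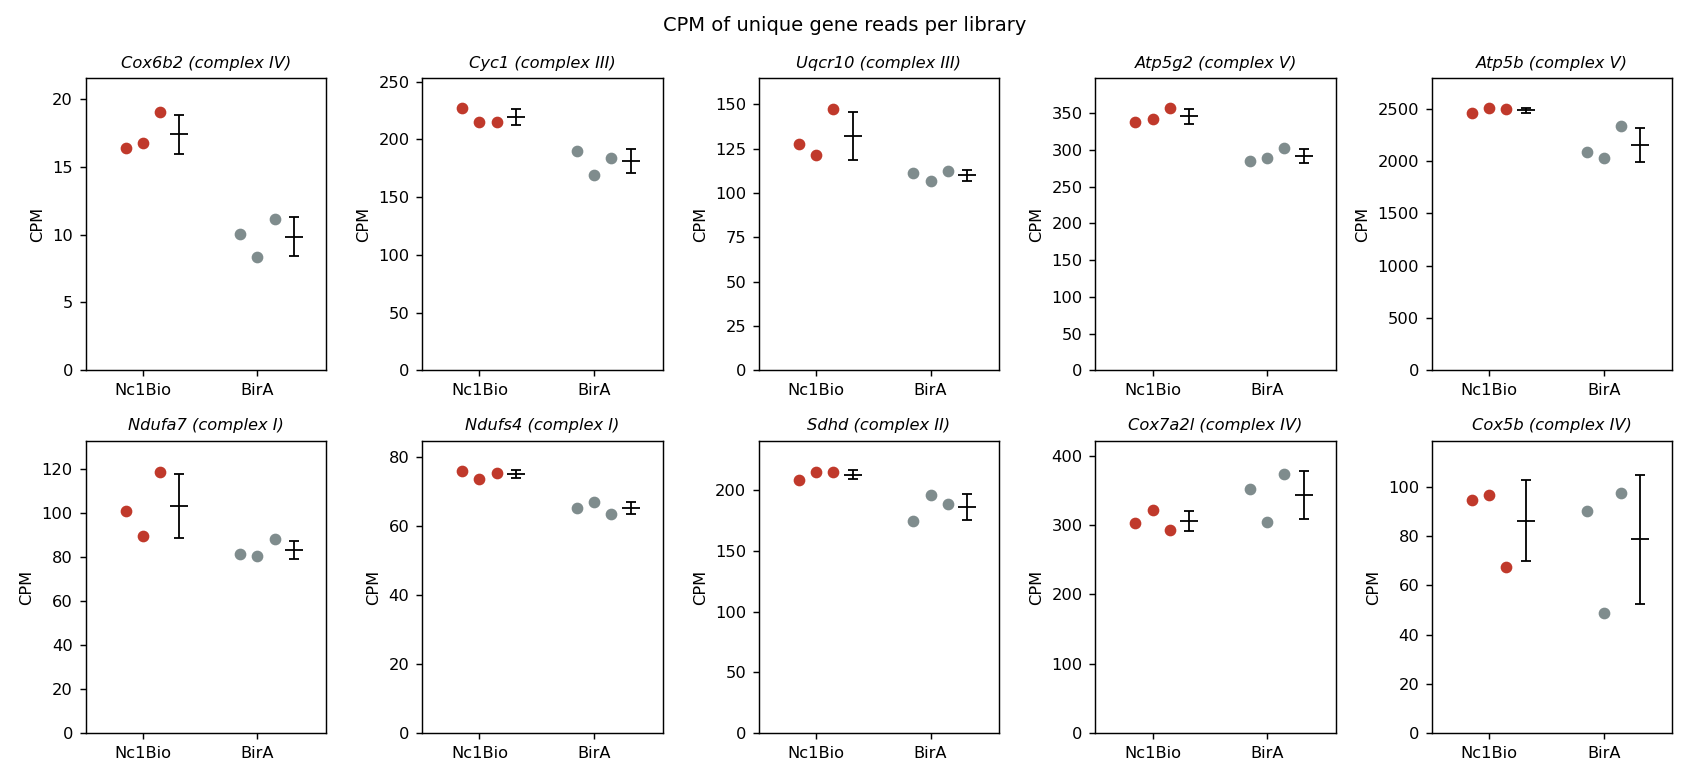
CPM of unique gene reads in the 3 Nc1Bio (red) and 3 BirA (grey) libraries, with mean ± SD, for 10 members. On the TMM scale the groups lie apart for the first 8 genes, from *Cox6b2* to *Sdhd*, and overlap for *Cox7a2l* and for *Cox5b*, where BirA replicate 2 is at 48.8 CPM and Nc1Bio replicate 3 at 67.4 CPM.

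Complex IV, cytochrome c oxidase, held both ends of the range on unique reads. *Cox6b2* (ENSMUSG00000051811, chromosome 7, 4751792 to 4753094, GRCm38, minus strand) had the largest estimate of all tested members. It had 16.4, 16.8 and 19.0 CPM in Nc1Bio, against 10.03, 8.32 and 11.2 CPM in BirA. The groups were well apart, and the log2 fold change was 0.82 (SE 0.19), a fold of 1.77. It did not pass in edgeR (adjusted p = 0.203) or limma-voom (adjusted p = 0.202). DESeq2 called it higher on unique reads (adjusted p = 0.0380) and on total gene reads (adjusted p = 0.0452), but not when genes with low counts were kept in the fit (adjusted p = 0.0517 and 0.0729), where 0 members were called, against 0.32% of all genes higher and 2.16% lower on unique reads. Over all alternatives the estimate stayed between 0.72 and 0.93 and its adjusted p between 0.0380 and 0.550. *Cox6b1*, the widely expressed form of the same subunit, had 214, 203 and 217 CPM in Nc1Bio and 209, 207 and 201 CPM in BirA (log2 fold change 0.037, SE 0.081, edgeR adjusted p = 0.882). Per kb of exon *Cox6b2* made up 4.65%, 5.02% and 5.35% of the *Cox6b* pair in Nc1Bio and 2.94%, 2.48% and 3.44% in BirA. The promoter windows of the pair are shown because the genes of one subunit had such unlike values. They are RefSeq sequence (GRCm38.p6), 300 bases that span the annotated start, on the minus strand, at chr7:4753045-4753344 for *Cox6b2* and chr7:30626065-30626364 for *Cox6b1*, with capitals marking the motif matches described further on:
Cox6b2: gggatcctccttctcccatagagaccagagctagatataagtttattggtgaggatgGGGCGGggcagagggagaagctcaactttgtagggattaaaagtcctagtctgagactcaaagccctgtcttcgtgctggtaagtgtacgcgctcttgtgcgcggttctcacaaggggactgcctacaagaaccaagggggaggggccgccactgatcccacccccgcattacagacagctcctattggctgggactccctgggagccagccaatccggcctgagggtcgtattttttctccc
Cox6b1: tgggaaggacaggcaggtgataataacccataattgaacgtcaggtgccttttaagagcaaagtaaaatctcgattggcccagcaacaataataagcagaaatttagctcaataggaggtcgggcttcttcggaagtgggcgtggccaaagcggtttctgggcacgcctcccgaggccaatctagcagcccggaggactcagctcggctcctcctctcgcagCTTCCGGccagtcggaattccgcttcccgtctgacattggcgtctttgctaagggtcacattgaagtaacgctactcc
The *Cox6b2* window held a GC box (GGGCGG) and no ETS match. That of *Cox6b1* held an ETS match (CCGGAAG, here on the other strand) close to the start and no GC box. Of all RefSeq windows 35.7% held a GC box and 8.86% an ETS match. A link between these matches and the values of the pair was not tested.

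Among the other isoform families, *Cox7a1* had 2.33, 2.58 and 0.77 CPM in Nc1Bio and 2.82, 2.69 and 2.99 CPM in BirA (log2 fold change -0.58, SE 0.52, edgeR adjusted p = 0.690). Nc1Bio replicate 3 was low, the other libraries nearly met, and the estimate moved from -0.87 to -0.20 as single libraries were left out. *Cox7a2* lay at 0.20 (SE 0.11). *Cox7a2l*, which encodes a factor that links complexes III and IV into supercomplexes, had 302, 322 and 293 CPM in Nc1Bio and 352, 305 and 373 CPM in BirA (-0.17, SE 0.10, edgeR adjusted p = 0.555), and the groups overlapped. *Cox4i1*, *Cox6a1*, *Cox7b* and *Cox8a* lay at -0.0083, 0.15, 0.19 and 0.19, each with overlapping groups. BirA replicate 2 was lowest for 9 of the 13 tested genes of this complex, beside 1658 of all 12224 tested genes. It reached 54.6% of the mean of the other 5 libraries for *Cox5b*, 68.3% for *Cox6a1*, 68.5% for *Cox8a* and 74.2% for *Cox5a*, and 60.2% for *Ndufb2* of complex I. Without it the estimate of *Cox6a1* was -0.016 and that of *Ndufb2* -0.11. BirA replicate 2 also had the highest sum of granulocyte markers (8748 CPM), whose part in these values was not tested.

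In complex V, the groups lay apart for all 3 genes of the c ring, the rotor that turns as protons pass, although those of *Atp5g3* overlapped on library totals. *Atp5g1*, *Atp5g2* and *Atp5g3* encode the same mature c subunit behind different import sequences. *Atp5g2* had 339, 342 and 358 CPM in Nc1Bio, against 284, 289 and 303 CPM in BirA (log2 fold change 0.24, SE 0.082, edgeR adjusted p = 0.339). *Atp5g1* had 205, 199 and 227 CPM in Nc1Bio and 167, 172 and 193 CPM in BirA (0.25, SE 0.099, edgeR adjusted p = 0.394). *Atp5g3* had 522, 495 and 531 CPM in Nc1Bio and 437, 462 and 489 CPM in BirA (0.16, SE 0.088, edgeR adjusted p = 0.513). The summed CPM of the 3 genes were 1073 ± 40.3 for Nc1Bio and 932 ± 48.8 for BirA (SD over 3 libraries). *Atp5g1* made up 19.2% to 20.4% of this sum in Nc1Bio and 18.6% to 19.6% in BirA. Their RefSeq promoter windows (GRCm38.p6, all on the minus strand) lie at chr11:96075582-96075881, chr15:102670998-102671297 and chr2:73911277-73911576 and are printed because 3 genes for 1 protein can be set side by side:
Atp5g1: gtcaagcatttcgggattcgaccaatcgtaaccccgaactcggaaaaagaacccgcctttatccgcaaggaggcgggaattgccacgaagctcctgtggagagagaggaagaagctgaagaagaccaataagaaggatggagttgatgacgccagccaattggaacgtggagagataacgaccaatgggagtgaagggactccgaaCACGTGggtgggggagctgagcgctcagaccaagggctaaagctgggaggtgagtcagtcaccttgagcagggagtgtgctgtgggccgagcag
Atp5g2: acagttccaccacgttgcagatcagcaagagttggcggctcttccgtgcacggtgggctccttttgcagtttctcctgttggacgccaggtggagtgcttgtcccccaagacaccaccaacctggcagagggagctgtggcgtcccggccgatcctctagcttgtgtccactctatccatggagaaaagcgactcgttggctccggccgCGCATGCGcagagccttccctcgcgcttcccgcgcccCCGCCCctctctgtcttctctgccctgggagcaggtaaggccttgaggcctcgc
Atp5g3: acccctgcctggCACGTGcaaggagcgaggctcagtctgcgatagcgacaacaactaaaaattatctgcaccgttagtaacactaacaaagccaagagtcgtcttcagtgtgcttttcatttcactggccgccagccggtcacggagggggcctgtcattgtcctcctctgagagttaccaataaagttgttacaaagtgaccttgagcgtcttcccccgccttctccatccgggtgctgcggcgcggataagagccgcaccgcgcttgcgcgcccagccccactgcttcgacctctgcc
Their matches differed. *Atp5g2* carried an NRF1 match in its palindromic form just before the start and a GC box, and *Atp5g1* and *Atp5g3* each an E-box (CACGTG). A link between these matches and the values of the c ring genes was not tested.

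The 5 genes of the catalytic head and central stalk were all above 0 (median 0.10). *Atp5b* had 2461, 2506 and 2496 CPM in Nc1Bio and 2086, 2031 and 2338 CPM in BirA (log2 fold change 0.21, SE 0.090, edgeR adjusted p = 0.418). The Nc1Bio libraries were close together, and BirA replicate 3 was nearer to them than the other 2. *Atp5a1* lay at 0.10 (SE 0.090) with overlapping groups. The 4 genes of the peripheral stalk ranged from 0.063 to 0.23 and the 4 membrane accessory genes from 0.065 to 0.21. *Atp5s* had few reads (4.56 ± 0.96 CPM for Nc1Bio and 4.05 ± 0.77 CPM for BirA, SD over 3 libraries).

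Many subunit genes have near copies elsewhere in the genome, and reads that match several places are missing from the unique column. Of 85 members with reads, 51 had at least 99% of total gene reads placed uniquely, beside 6834 of 12051 other protein-coding genes tested. Another 13 members (15.3%) had under 50%, close to the 12.4% of those other genes. *Cox7c* kept 3.74%, *Ndufb4* 7.09%, *Ndufab1* 14.9%, *Ndufs5* 20.04% and *Cox6a2* 22.9%. Of the 13, 4 overlap no other listed gene. The tables hold 0 rows of processed pseudogenes, so reads shared with such copies cannot be followed further, and values of these genes are uncertain. In all, 34 members overlap another listed gene, such as *Cox4i1* with *Emc8*, *Ndufb2* with *Braf* and *Atp5b* with small RNA genes, and whether strand was used in counting is not stated. The unique values of *Cox7c*, a subunit with no tissue-limited form, were 8.41, 9.71 and 8.64 CPM in Nc1Bio and 6.14, 7.30 and 6.74 CPM in BirA, without overlap (log2 fold change 0.41, SE 0.23, edgeR adjusted p = 0.516). Its total values were 163, 142 and 160 CPM and 147, 135 and 145 CPM, with overlap and a log2 fold change of 0.12 (SE 0.091).

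**Figure D5:**
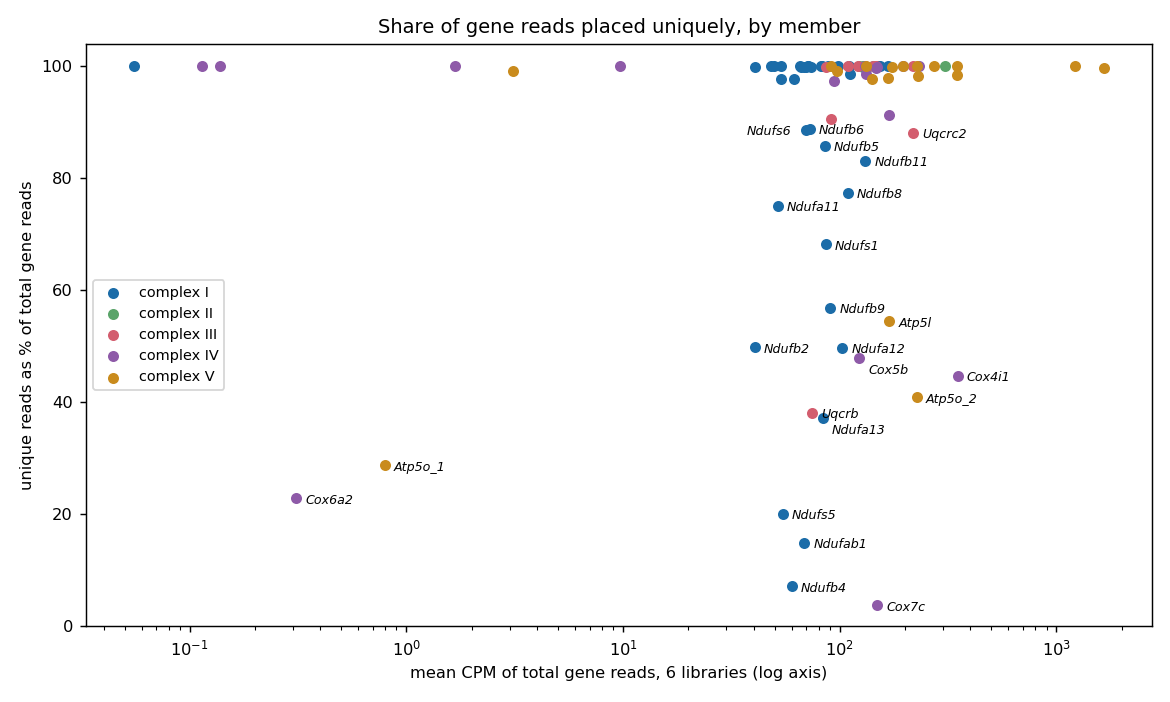
Share of total gene reads that were placed uniquely (vertical axis, percent) against the mean CPM of total gene reads over 6 libraries (log axis), one point per member with reads, coloured by complex and named below 90%. Most members lie at the top edge, while *Cox7c*, *Ndufb4*, *Ndufab1* and *Ndufs5*, all well expressed in total reads, lie at 20.04% or less.

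With total gene reads 81 members were tested, edgeR again called 0 in either direction (0.00764% of all 13095 genes higher, 0% lower), and 10 members were higher and 0 lower at an unadjusted p under 0.05 (4.15% and 7.32% of all genes). limma-voom was not run on this column, and DESeq2 called 1 higher, *Cox6b2*, and 0 lower (0.451% and 2.21% of all genes). The groups lay apart with Nc1Bio above for 18 members and below for 1 (8.42% and 9.98% of all genes). The median log2 fold change was 0.118, with 77 of 81 above 0. *Ndufb4*, an accessory subunit of the membrane arm, had 61.3, 68.2 and 71.3 total CPM in Nc1Bio and 53.2, 53.6 and 52.7 in BirA, and an estimate of 0.33 on the log2 scale (SE 0.090, edgeR adjusted p = 0.276). On unique reads its groups overlapped at 5.08 to 7.36 CPM in Nc1Bio and 4.98 to 6.32 CPM in BirA. *Ndufa12* reached 0.36 (SE 0.10, edgeR adjusted p = 0.295) on total reads, with groups that no longer overlapped. Signs differed between the columns for *Ndufs5* (-0.13 unique, 0.061 total), *Ndufa13* (-0.11 and 0.031) and *Cox4i1* (-0.0083 and 0.022). *Ndufab1* lay at 0.096 and 0.22. The lowest estimate on total reads was that of *Atp5o_1*, the member tested on this column alone, with 0, 0.27 and 1.21 CPM in Nc1Bio and 0.57, 0.41 and 2.33 CPM in BirA (-1.14, SE 1.22, edgeR adjusted p = 0.745). Its groups overlapped.

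Nuclear respiratory genes are known to be served by NRF1, by the ETS factor GABP and by YY1, and the promoter windows of the members were searched for short forms of their motifs on both strands. RefSeq windows of 300 bases were matched for 69 of the 87 members, 74 windows in all. For 5 members 2 windows were counted, and the overlapping windows of *Ndufa7* each held an E-box and a TATA box match. The set of all windows was not limited to genes expressed in these cells. The NRF1 form GCATGCG was found in 14.9% of the member windows and 3.58% of all 32851 windows, the ETS form CCGGAAG in 21.6% and 8.86%, and the YY1 form AAGATGG in 14.9% and 6.34%. The GC box GGGCGG was found in 40.5% and 35.7%, the E-box CACGTG in 9.46% and 7.15%, the TATA box form TATAAA in 10.8% and 13.6%, and the NFAT core TGGAAA in 14.9% and 21.4%. The palindrome CGCATGCG was read as an NRF1 match on each strand, and the ETS and NFAT forms have GGAA in common. By complex, ETS matches were in 2 of 3 windows of complex II, 2 of 5 of complex III, 5 of 18 of complex V, 3 of 13 of complex IV and 4 of 35 of complex I. A match is a run of letters and not a shown site of binding. *Atp5j*, a gene of the peripheral stalk, is printed as the example whose window held the NRF1, ETS and YY1 forms together (chosen after the search, chr16:84834927-84835226, minus strand, GRCm38.p6):
Atp5j: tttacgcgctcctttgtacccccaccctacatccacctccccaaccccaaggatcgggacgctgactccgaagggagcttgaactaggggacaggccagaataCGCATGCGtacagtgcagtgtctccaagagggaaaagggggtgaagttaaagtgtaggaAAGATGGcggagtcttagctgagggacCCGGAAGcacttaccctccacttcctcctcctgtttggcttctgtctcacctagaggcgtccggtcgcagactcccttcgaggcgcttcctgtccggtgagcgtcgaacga
The capitals are, from the left, the NRF1 palindrome, the YY1 form and the ETS form. Its other window held GC boxes alone. *Atp5j* had 222, 233 and 284 CPM in Nc1Bio and 231, 198 and 202 CPM in BirA (log2 fold change 0.23, SE 0.12, edgeR adjusted p = 0.499), with overlapping groups.

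The factors themselves and other genes of mitochondrial function were read from lists. The biogenesis regulators had 11 of 13 tested genes above 0 (median log2 fold change 0.092), with *Nrf1* at 0.20, *Gabpa* at 0.17, *Tfam* at 0.056 and *Yy1* at 0.0071. *Myc*, which belongs to that list as a known driver of mitochondrial genes, lay at 0.59 and was called by DESeq2 but not by edgeR, as the 1 gene that DESeq2 called among the mitochondrial lists. Assembly factors of the chain had 33 of 47 genes above 0 (median 0.11), citric acid cycle enzymes 12 of 13 (0.12), electron carriers and ATP export 18 of 23 (0.13) and mitochondrial ribosomal proteins 70 of 77 (0.16). The 13 mitochondrially encoded subunits had 4 of 13 above 0 (median -0.081), and their summed CPM ran from 43492 to 52204 in Nc1Bio and from 32755 to 68677 in BirA. For none of these lists did a gene pass the edgeR test, with 1, 3, 2, 1, 9 and 0 genes higher and 0 lower at an unadjusted p under 0.05 in the order given, beside 4.31% and 7.66% of all tested genes. Proliferation genes had estimates on the same side, with 17 of 17 above 0 (median 0.24, 7 higher at an unadjusted p under 0.05, 0 called by edgeR, 2 by DESeq2, which called 0.45% of all genes higher), with summed levels of 7836 to 8399 CPM in Nc1Bio and 5912 to 7351 CPM in BirA. Their part in the values of the respiratory chain genes was not tested.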

How the data were processed

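RNA of 6 DN thymocyte libraries was analysed. The methods of the study name cutadapt, STAR with GRCm38, featureCounts and DESeq2, but the layout of the tables is not that of featureCounts, and the sources used here do not name the program behind them. Per gene, the deposited tables hold counts of reads over the gene, its exons and its introns, each as unique and as total reads; the RPKM and TPM columns were not used. Use of strand is not stated, and 34 members overlap another listed gene.

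Members, lists and the rule for named genes were chosen with earlier results of these data known. Named were, by complex, the 3 members of lowest p and those of highest and lowest level per kb, any called member, the 5 with the smallest unique share, the 5 that differed most between unique and total reads, and the isoform families. *Ndufs8*, *Sdha*, *Uqcrfs1*, *Uqcrh*, *Cox5a*, *Cox5b*, *Atp5a1* and *Atp5j* were added after their values were seen.

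Unique gene reads that passed filterByExpr (12224 genes, 80 members) were scaled by TMM and tested in edgeR 4.0.16 (quasi-likelihood, R 4.3.3) with genotype as the single term and Benjamini-Hochberg adjustment over all genes. The SE was taken as the absolute log2 fold change over the root of F. CPM were scaled by TMM, and CPM of unique and of total reads have different denominators. Levels per kb are total exon reads divided by annotated exon length and TMM-scaled depth. SDs are between libraries and include counting error. Alternatives were other count columns, RLE scaling, library totals without TMM, other filters, DESeq2 1.42.0, limma-voom (limma 3.58.1), a replicate block, protein-coding genes alone, the threshold of the study (adjusted p under 0.01 and absolute log2 fold change over 0.5) and leaving out libraries. The steps were tested on simulated data whose changes were much larger than the median difference of the members. That test does not cover differences of the size seen here. No 2 libraries agreed within sampling noise.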

Additional observations from a re-analysis of the deposited data

How the results depend on the processing

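The count of members called higher was 0 in edgeR and limma-voom under every alternative run, and 1 (*Cox6b2*) in DESeq2 on unique and on total gene reads with low-count genes removed. It was 0 in DESeq2 with those genes kept and at the threshold of the study. No member was called lower anywhere. Of all tested genes, edgeR called 11 higher and 145 lower with no low-count filter, and 1 higher and 18 lower on library totals. The other edgeR fits and limma-voom called at most 1 gene higher and at most 2 lower. The median log2 fold change of the members ranged from 0.085 to 0.189 as single libraries were left out, with 0 members called each time, and was 0.107 without BirA replicate 1 and Nc1Bio replicate 3 together. It was 0.094 with library totals in place of TMM and lay between 0.117 and 0.129 under the other alternatives.

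The labels do not say whether the replicate numbers pair the libraries. Deviations of same-numbered libraries correlated at 0.33, 0.12 and -0.099, and those of libraries with unlike numbers at -0.39 to 0.25. So few correlations cannot decide the question. With the number as a replicate block the median was 0.127 with 0 members called, and *Cox6b2* had an edgeR adjusted p of 0.209.

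Of 682 estimates of 31 named members under 22 settings, 660 kept their direction and side of the threshold. On total gene reads, total exon reads, DESeq2 on total gene reads and DESeq2 on total gene reads with no filter, *Ndufs5* was at 0.0615, 0.0592, 0.0607 and 0.0611, *Ndufa13* at 0.0314, 0.0209, 0.0302 and 0.0309, and *Cox4i1* at 0.0223, 0.0167, 0.0216 and 0.0220. *Ndufa13* was at 0.0197 without BirA replicate 1 and Nc1Bio replicate 3. Leaving out single libraries, *Cox4i1* ranged from -0.070 to 0.071, *Ndufa13* from -0.16 to -0.039, *Cox6a1* from -0.016 to 0.25, *Ndufb2* from -0.11 to 0.27 and *Ndufab1* from -0.13 to 0.23. Without BirA replicate 1 and Nc1Bio replicate 3 together, the estimates of *Cox6a1*, *Ndufb2* and *Ndufab1* were 0.31, 0.30 and 0.26. The cause was not tested. DESeq2 without a low-count filter, edgeR in non-legacy mode and library totals without TMM were chosen after seeing the data. With 3 libraries a group and a typical SE of 0.105, differences of the size of the median could not be called for single genes.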
